A study of Mus musculus with 6 samples.

Results

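The aldehyde, alcohol and retinol dehydrogenases of mouse testis were described here as a group of 59 genes among the 15207 genes measured on the arrays. The members were all genes whose current symbol starts with Aldh, with Adh and a digit, with Rdh, with Dhrs or with Akr1 and that had at least 3 probe sets annotated to that symbol alone. They comprised 19 Aldh, 4 Adh, 12 Rdh, 10 Dhrs and 14 Akr1 genes, and together held 695 probe sets, from 3 to 27 each. A further 11 symbols of these families had no probe set of their own, among them Aldh8a1, Akr1b3 and Akr1b7, and were not analysed here. Each gene was given 1 level per array, the median over its probe sets of the log2 signal.

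Total RNA of whole testes was hybridised to 6 Affymetrix Mouse Exon 1.0 ST arrays, a design whose probe sets of short oligonucleotides are spread over the exons of a gene. The 3 Wt P21 arrays came from wild-type mice at postnatal day 21. The other 3, the Fn adult arrays, came from adult mice homozygous for Dazap1 Fn, a floxed allele that still carries a neo cassette and from which an altered form of the RNA-binding protein DAZAP1 is made. All mice were of a mixed C57BL/6 and 129 background, and the samples of each group are labelled as biological replicates. Adult mutants were set against young wild-type mice because spermatogenesis stops before the meiotic division in the mutant, so that its germ cells resemble those of the younger testis, and because the mutants grow slowly. Few homozygous mice survive to adulthood. Genotype and age change together in this design, and their parts in any difference cannot be told apart. Dazap1 itself was not analysed here, and the genotype labels had no check of their own. In bulk RNA of a whole organ, fewer cells of a type and less RNA per cell cannot be told apart either.

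The Wt P21 arrays stood apart from each other. Wt P21 replicates 1 and 2 carried high signals of 2 genes of epididymal epithelium, the tissue next to the testis. Crisp1, a secreted epididymal protein, read 10.26, 8.74 and 4.30 on the Wt P21 arrays and 4.03, 4.70 and 4.28 on the Fn adult arrays. Spink8 read 8.95, 7.04 and 5.70 against 6.11, 5.59 and 5.96. The other 7 measured epididymal markers ran from 5.38 to 8.65, and the median of the 9 was 7.18, 7.04 and 6.70 against 6.57, 6.39 and 6.64. Wt P21 replicate 3 had signals above the average of replicates 1 and 2 for 10118 of the 15207 genes and 40 of the 59 members. It was higher for 14 of 14 pachytene, 14 of 15 spermatid, 10 of 12 macrophage and 8 of 9 adipocyte markers, and lower for 13 of 13 Sertoli cell markers. Adipoq, an adipocyte hormone, read 7.54, 6.61 and 8.59 on the Wt P21 arrays. The part of these arrays in the differences was not tested beyond leaving them out.

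As background, these enzymes pass hydrogen between alcohols, aldehydes and acids. Alcohol dehydrogenases and the short-chain enzymes named Rdh and Dhrs interconvert alcohols and carbonyls, retinol and retinaldehyde among them. Aldehyde dehydrogenases then oxidise aldehydes irreversibly to acids, and the Aldh1a enzymes in this way make retinoic acid, which spermatogonia need to differentiate and enter meiosis. The aldo-keto reductases of the Akr1 family run in the opposite sense and reduce aldehydes, ketones and steroids with NADPH. Several aldehyde dehydrogenases sit in mitochondria and serve the breakdown of amino acids rather than of alcohols.

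Across the 59 genes, 17 were higher in Fn adult than in Wt P21 testes at an adjusted p under 0.05 (limma, Benjamini-Hochberg over all 15207 genes) and 0 were lower. Over all genes 8.07% were called higher and 0.914% lower, so the share of members called higher, 28.8%, was above the background. The rise was uneven between the families. Of the Aldh genes 12 of 19 were higher, of the Akr1 genes 3 of 14, of the Adh genes 1 of 4, of the Dhrs genes 1 of 10, and of the Rdh genes 0 of 12. The median difference, Fn adult minus Wt P21 on the log2 scale, was 0.24 over the members and 0.07 over all genes. By family it was 0.73 for Aldh, 0.55 for Adh, -0.06 for Rdh, -0.11 for Dhrs and near 0 for Akr1. At an unadjusted p under 0.05, 26 members were higher and 2, Adh4 and Dhrs11, were lower. No share over all genes is given at an unadjusted p, here or below, so such counts are not set against a background. The 3 arrays of a group did not overlap with those of the other in 26 members that were higher, 44.1% against 25.6% of all genes, and in 6 that were lower, 10.2% against 8.96% of all genes. Of the 17 called genes, all had Fn adult values above every Wt P21 value, and 14 differed by over 1.5-fold. The lack of overlap largely follows from the call, which was made on the same values.

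**Figure D1:**
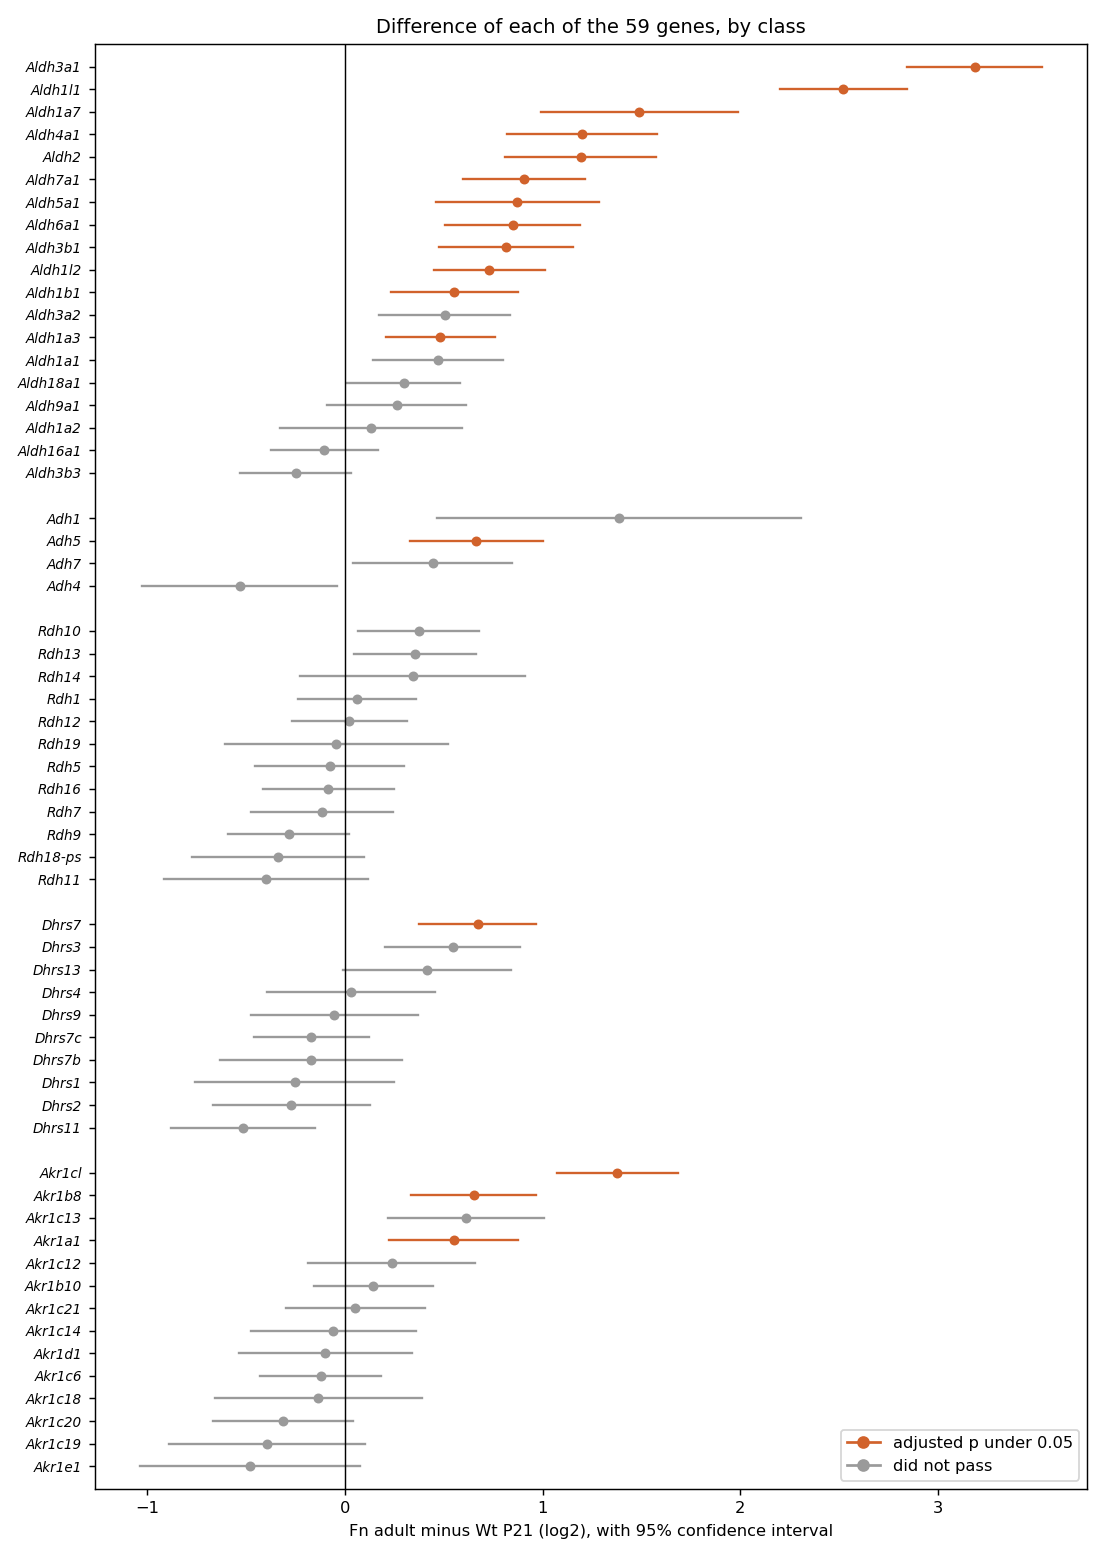
Fn adult minus Wt P21 on the log2 scale (horizontal axis) for each of the 59 genes, grouped by family and ordered by size, with 95% confidence intervals from limma. Orange marks the 17 genes with an adjusted p under 0.05, of which 12 are Aldh genes, and grey marks the 42 that did not pass.

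The largest difference was that of Aldh3a1, which oxidises aromatic and fatty aldehydes and is best known as an abundant protein of the cornea. Its level was 7.11, 7.14 and 7.12 on the Wt P21 arrays and 10.28, 10.57 and 10.07 on the Fn adult arrays. The Wt P21 values lay close together, under the lower quartile of all probe sets, and the Fn adult values stood far above them. The difference was 3.19 on the log2 scale with a standard error (SE) of 0.15 (adjusted p = 1.97e-05). No fold is given, since a signal that low may be mostly background. All 12 probe sets of Aldh3a1 were higher, by 0.76 to 4.36 on the log2 scale, and 10 passed the test on their own.

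Next came Aldh1l1, the cytosolic enzyme that oxidises formyltetrahydrofolate and so removes carbon units from the folate pool. It stood at 8.35, 8.30 and 8.55 on the Wt P21 arrays and 11.11, 10.78 and 10.87 on the Fn adult arrays. The difference was 2.52 (SE 0.14), a 5.74-fold higher level (adjusted p = 4.32e-05). All 27 of its probe sets were higher and 25 passed. Its mitochondrial counterpart, Aldh1l2, gave 6.32, 6.14 and 6.27 on the Wt P21 arrays and 7.01, 6.86 and 7.05 on the Fn adult arrays, under the lower quartile of all probe sets in both groups. Aldh1l2 passed the test with a difference of 0.73 (SE 0.12, adjusted p = 0.011), although only 5 of its 26 probe sets did so singly.

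**Figure D2:**
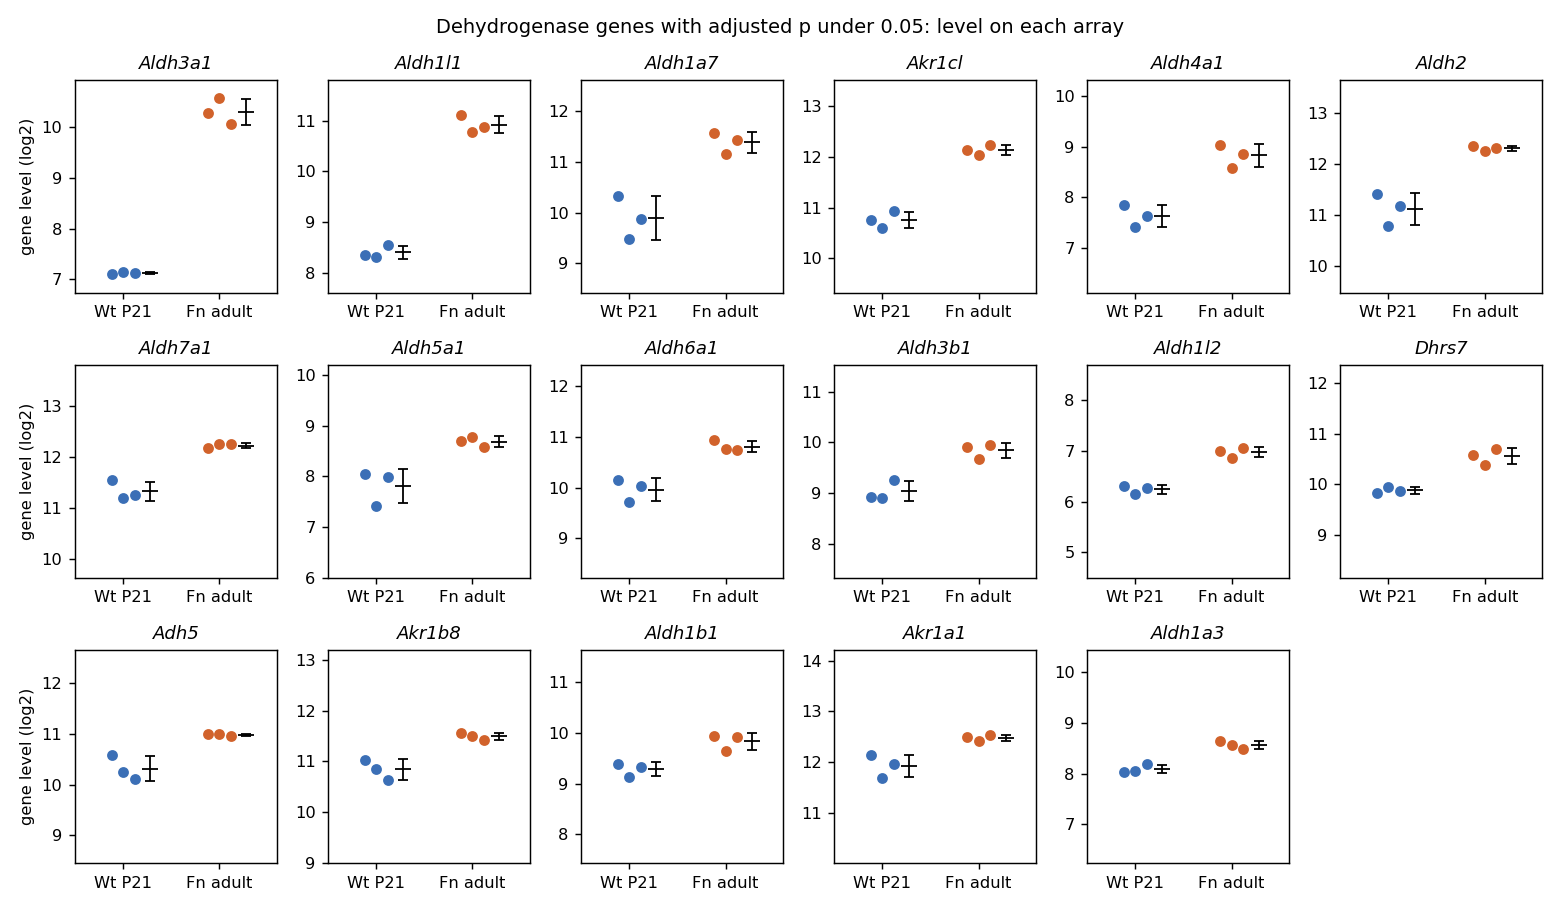
Gene level (log2, vertical axis) on each of the 3 Wt P21 arrays (blue) and 3 Fn adult arrays (orange) for the 17 genes with an adjusted p under 0.05, ordered by the size of the difference. Black bars give the group mean and SD, and every panel spans the same log2 range. In each panel all Fn adult points lie above all Wt P21 points, which largely follows from the call.

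The mitochondrial aldehyde dehydrogenases rose nearly as a set. Of 8 genes whose enzymes are known to work in mitochondria, 7 passed as higher in Fn adult testes, against 5 of the 11 other Aldh genes. This grouping was made after the values were seen and was not tested. Aldh2, which clears acetaldehyde after ethanol intake, read 11.40, 10.78 and 11.17 in Wt P21 and 12.35, 12.27 and 12.31 in Fn adult testes. The 3 Fn adult values of Aldh2 were almost equal, and they were 2.28-fold above the Wt P21 mean (1.19 on the log2 scale, SE 0.17, adjusted p = 0.00542). Of its 18 probe sets 16 passed. Aldh4a1, the enzyme that completes the breakdown of proline to glutamate, rose 2.3-fold, from 7.85, 7.41 and 7.63 to 9.03, 8.59 and 8.86 (adjusted p = 0.00514). The 2 groups were separated by more than the span of either. In its 21 probe sets the difference ran from -0.18 to 1.76 on the log2 scale, with 11 past the threshold.

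Aldh7a1, which acts in lysine breakdown, gave 11.54, 11.18 and 11.25 on the Wt P21 arrays and 12.18, 12.25 and 12.26 on the Fn adult arrays. It was 1.87-fold higher (adjusted p = 0.0068), with all 26 probe sets higher and 8 past the threshold. Aldh6a1, of valine and thymine breakdown, went from 10.15, 9.71 and 10.03 to 10.93, 10.77 and 10.74, 1.8-fold (adjusted p = 0.0126). Aldh5a1, which oxidises the succinic semialdehyde left by the transmitter GABA, gave 8.04, 7.41 and 7.98 against 8.69, 8.78 and 8.57. The Wt P21 values of Aldh5a1 were spread more widely than those of Fn adult, and the difference was 0.87 on the log2 scale (SE 0.18, adjusted p = 0.0231). Aldh1b1, an acetaldehyde-oxidising relative of Aldh2, had 4 probe sets and rose from 9.39, 9.13 and 9.33 to 9.95, 9.65 and 9.92 (adjusted p = 0.0458). The mitochondrial gene that did not pass was Aldh18a1, of proline synthesis. It gave 8.86, 8.74 and 8.92 in Wt P21 and 9.27, 9.10 and 9.05 in Fn adult testes. The groups did not overlap and 21 of its 22 probe sets were higher. Its difference of 0.30 missed the threshold (95% confidence interval 0.01 to 0.58, adjusted p = 0.172).

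Of the enzymes that act on lipid aldehydes, Aldh3b1 rose from 8.93, 8.91 and 9.26 to 9.92, 9.68 and 9.95 (1.76-fold, adjusted p = 0.0143). Its probe sets were uneven: 4 of 11 passed, and the differences ran from -0.23 to 1.63. Aldh3a2, the fatty aldehyde dehydrogenase of the endoplasmic reticulum, gave 10.47, 10.09 and 10.47 in Wt P21 and 10.79, 10.81 and 10.95 in Fn adult testes, with no overlap, but missed the threshold (difference 0.50, adjusted p = 0.066). Aldh3b3, with 3 probe sets, was among the 6 members whose Fn adult values all lay below those of Wt P21, with a difference of -0.25 (adjusted p = 0.233). Aldh9a1, which oxidises aminoaldehydes on the way to carnitine, read 11.16, 11.14 and 11.58 against 11.54, 11.47 and 11.66. All 18 of its probe sets were higher, but the groups overlapped and the difference of 0.26 did not pass (95% confidence interval -0.09 to 0.61, adjusted p = 0.312).

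Among the enzymes that turn retinaldehyde into retinoic acid, the 3 genes differed in whether they passed. Aldh1a1 gave 12.57, 12.23 and 12.36 on the Wt P21 arrays and 12.98, 12.68 and 12.90 on the Fn adult arrays. The Fn adult values were all higher, but the difference of 0.47 (95% confidence interval 0.14 to 0.80) had an adjusted p of 0.0794. Aldh1a2, the form known from spermatocytes, gave 11.03, 10.55 and 11.39 against 11.15, 11.13 and 11.08. The Fn adult values of Aldh1a2 fell inside the range of Wt P21 (difference 0.13, 95% confidence interval -0.33 to 0.59, adjusted p = 0.72). Aldh1a3 rose 1.4-fold, from 8.03, 8.05 and 8.18 to 8.65, 8.57 and 8.49 (adjusted p = 0.0439), with 1 of its 14 probe sets past the threshold.

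Aldh1a7 is a rodent paralog of Aldh1a1 that is known to have little activity towards retinaldehyde. It stood at 10.33, 9.48 and 9.87 in Wt P21 and 11.56, 11.15 and 11.43 in Fn adult testes. The replicates were spread in both groups, yet all Fn adult values lay above those of Wt P21, by 1.49 on the log2 scale (SE 0.22, 2.81-fold, adjusted p = 0.00622). All 15 Aldh1a7 probe sets were higher, by 0.35 to 2.31 on the log2 scale, and 10 passed, whereas the 15 Aldh1a1 probe sets gave 0.00 to 0.79 and 0 passed. Whether the 2 differences differ from each other was not tested. The genes are known as close paralogs, so a probe set annotated to only one of them may still bind RNA of the other. The likeness extends to the promoter. The 110 bases before the Aldh1a7 start and before the downstream one of the 2 Aldh1a1 starts, both on chromosome 19, are shown to let the likeness be seen, with the bases that differ in capitals (RefSeq sequences, GRCm38.p6, chr19:20601858-20601967 on the plus strand and chr19:20727557-20727666 on the minus strand):
Aldh1a1: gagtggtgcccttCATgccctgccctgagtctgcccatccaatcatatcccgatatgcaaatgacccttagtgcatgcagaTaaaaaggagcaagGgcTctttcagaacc
Aldh1a7: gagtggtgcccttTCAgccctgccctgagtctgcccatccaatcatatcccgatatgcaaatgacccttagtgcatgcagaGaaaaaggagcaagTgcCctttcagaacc
They differed at 6 of 110 positions when set side by side without gaps. Gene levels so alike in sequence are reported as uncertain in their split.

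In the alcohol dehydrogenases, Adh5, the glutathione-dependent enzyme that clears formaldehyde, rose from 10.59, 10.24 and 10.12 to 10.99, 10.99 and 10.96 (1.59-fold, adjusted p = 0.0297), and all 10 of its probe sets were higher. Adh1, the main ethanol and retinol dehydrogenase of liver, gave 10.99, 9.20 and 10.25 on the Wt P21 arrays and 11.89, 11.57 and 11.13 on the Fn adult arrays. The groups did not overlap and all 11 Adh1 probe sets were higher, by 1.11 to 1.67. Wt P21 replicate 2 was far below the other Wt P21 arrays. The difference of 1.39 (95% confidence interval 0.47 to 2.31) missed the threshold with an adjusted p of 0.0678. Without Wt P21 replicate 1 the difference passed, and without Wt P21 replicate 2 it fell to 0.91 (adjusted p = 0.12). Adh7, the retinol-active form of the upper digestive tract, was near the lower end of the signals, at 6.84, 6.90 and 7.24 against 7.58, 7.13 and 7.60, and the groups overlapped (difference 0.44, adjusted p = 0.153). Adh4 was the 1 alcohol dehydrogenase with lower values, 8.10, 8.10 and 8.87 in Wt P21 and 7.75, 7.99 and 7.74 in Fn adult testes. Its Wt P21 replicate 3 was the highest, and the difference of -0.53 did not pass (adjusted p = 0.159).

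No retinol dehydrogenase passed the test with all 6 arrays in either direction (limma), and at an unadjusted p under 0.05, 2 were higher and 0 lower. The 12 Rdh genes differed by -0.40 to 0.37 on the log2 scale, and 5 of them lay under the lower quartile of all probe sets in both groups. Rdh10, which carries out the first oxidation of retinol on the way to retinoic acid, gave 9.44, 9.12 and 9.41 in Wt P21 and 9.76, 9.66 and 9.67 in Fn adult testes. The groups of Rdh10 did not overlap, and the difference of 0.37 had a 95% confidence interval of 0.07 to 0.68 and an adjusted p of 0.12. Rdh11, which favours the reduction of retinaldehyde, gave 11.51, 11.26 and 12.17 against 11.10, 11.41 and 11.23. Wt P21 replicate 3 was the highest, the groups overlapped, and the difference was -0.40 (95% confidence interval -0.92 to 0.12, adjusted p = 0.294). Rdh13, a mitochondrial member, and Rdh14 differed by 0.36 (adjusted p = 0.136) and 0.34 (adjusted p = 0.421), respectively. Without Wt P21 replicate 3 both passed as higher (adjusted p = 0.0461 and 0.0235), and without Wt P21 replicates 1 and 2 Rdh11 passed as lower (adjusted p = 0.0153). The confidence intervals of Rdh10 and Rdh13 excluded 0 before adjustment, so these data do not show that the Rdh genes stayed the same.

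Of the Dhrs genes, only Dhrs7, an enzyme of the endoplasmic reticulum, passed. It read 9.82, 9.96 and 9.88 on the Wt P21 arrays and 10.59, 10.39 and 10.69 on the Fn adult arrays, a 1.59-fold rise (adjusted p = 0.0181), with all 8 probe sets higher. Dhrs3, which reduces retinaldehyde back to retinol, gave 9.51, 9.08 and 9.39 against 9.81, 9.78 and 10.02 and just missed the threshold (difference 0.54, SE 0.15, adjusted p = 0.0585). Its probe sets differed among themselves: 10 of 22 passed as higher, with differences up to 1.41, and 2 had negative differences. Dhrs11 had the largest negative difference of this family, with 10.45, 10.80 and 10.97 in Wt P21 and 10.19, 10.35 and 10.13 in Fn adult testes. The groups did not overlap, all 9 of its probe sets were lower, and the difference was -0.52 (95% confidence interval -0.88 to -0.15, adjusted p = 0.0811). Dhrs4, a peroxisomal retinaldehyde and ketone reductase, differed by 0.03 (95% confidence interval -0.39 to 0.45). Dhrs9, an oxidoreductase of retinol and steroids, lay under the lower quartile in both groups and differed by -0.05 (adjusted p = 0.883). Dhrs1, with 11.28, 11.53 and 12.10 against 11.11, 11.49 and 11.54, overlapped between groups (difference -0.25, adjusted p = 0.504).

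In the aldo-keto reductases the largest rise was that of Akr1cl, an Akr1c-like gene. Its level was 10.75, 10.60 and 10.93 on the Wt P21 arrays and 12.13, 12.03 and 12.24 on the Fn adult arrays, a 2.6-fold difference (1.38 on the log2 scale, SE 0.13, adjusted p = 0.000999). All 15 probe sets of Akr1cl passed the test singly, from 0.86 to 1.97. Akr1b8, an aldose reductase-like enzyme, rose from 11.03, 10.85 and 10.63 to 11.55, 11.49 and 11.42 (1.57-fold, adjusted p = 0.0261). Akr1a1, the aldehyde reductase that mice use to make vitamin C, gave 12.13, 11.69 and 11.95 against 12.49, 12.41 and 12.53 and passed narrowly (difference 0.55, adjusted p = 0.0492). None of the 11 probe sets of Akr1a1 passed alone, although all were higher.

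The 8 Akr1c genes proper, whose enzymes act on steroids and prostaglandins, did not pass, and 6 lay under the lower quartile of all probe sets in both groups. At an unadjusted p under 0.05, 1 of the 8 was higher and 0 lower. Akr1c14, the steroid reductase that acts on dihydrotestosterone, was measured above that level, at 8.28, 7.61 and 7.96 against 7.98, 7.96 and 7.73, and overlapped (difference -0.06, 95% confidence interval -0.47 to 0.36). Akr1c18, which inactivates progesterone, lay under the lower quartile in both groups, at 4.08, 3.95 and 4.58 against 3.86, 3.83 and 4.51 (adjusted p = 0.749). Akr1c13 gave 6.80, 6.57 and 6.73 and 7.40, 7.56 and 6.96, with no overlap and a difference of 0.61 (adjusted p = 0.0627). The 12 probe sets that Akr1c12 and Akr1c13 share entered no gene level. Akr1e1, a reductase of anhydrofructose, gave 10.74, 10.31 and 11.38 against 10.29, 10.44 and 10.27. All 11 of its probe sets were lower, but Wt P21 replicate 3 was high, the groups overlapped, and the difference of -0.48 did not pass (adjusted p = 0.244).

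At the level of single probe sets, 143 of the 695 belonging to members were higher in Fn adult testes, 20.6% against 3.78% of all probe sets, and 0 were lower, against 0.402% of all probe sets. At an unadjusted p under 0.05, 20 were lower. Of the probe sets of the 17 called genes, 256 of 262 had a positive difference and 129 passed, and 13 of the 17 had no negative probe set. These genes were called on the median of the same probe sets, so mostly positive differences largely follow from the call. In 9 members every probe set was negative, among them Rdh11, Dhrs1, Dhrs11 and Akr1e1.

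**Figure D3:**
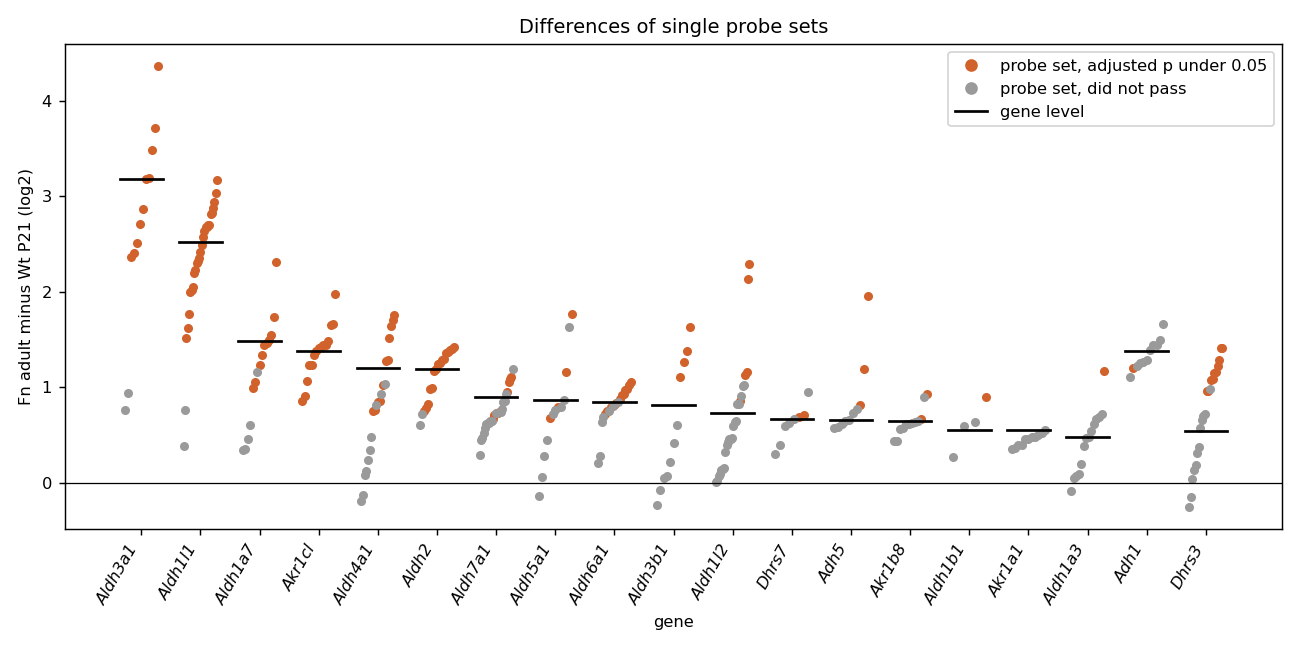
Fn adult minus Wt P21 on the log2 scale (vertical axis) for each probe set of the 17 called genes and of Adh1 and Dhrs3, ordered within a gene by size. Orange marks probe sets with an adjusted p under 0.05, grey those that did not pass, and the black line the gene level. All 15 probe sets of Akr1cl are orange, whereas those of Dhrs3 run from -0.25 to 1.41.

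Exon use was compared through the splicing index, which subtracts the gene level from the log2 value of a probe set, array by array. Only probe sets and genes above the median signal were tested, which left 287 probe sets of 24 members. The filter took the mean over all 6 arrays, so a gene could enter through its Fn adult signal. Aldh1l1, with 16 of the tested probe sets, had a mean of 8.40 in Wt P21, below the cut of 8.99, and 10.92 in Fn adult testes. Of the 287 probe sets, 0 were called higher and 0 lower (limma), against 0.00327% and 0.0109% of the 91798 probe sets tested over all genes. At an unadjusted p under 0.05, 22 were higher and 32 lower, with no share over all tested probe sets to set beside them. The lowest adjusted p, 0.127, belonged to a probe set of Aldh3b1. Under a trended and robust variance this probe set passed as lower (adjusted p = 0.0475), and with a filter at the lower quartile 1 probe set of Aldh3a1 did so (splicing index difference -2.42, adjusted p = 0.0367). The Aldh3a1 probe set is judged against a gene whose Wt P21 level was near the low end of the signals.

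Other genes of retinoid handling, for its carriers, storage, breakdown and receptors, were read from the same fit. Of 30 listed genes 26 were measured, 3 were higher and 0 lower, with a median difference of -0.08. The 3 were Retsat, which saturates retinol (difference 1.42, adjusted p = 0.00772), the lipid carrier Fabp5 (0.86, adjusted p = 0.0122) and the receptor Rxra (0.67, adjusted p = 0.0137), all named after their values were seen. Of the 32 listed steroid and carbonyl dehydrogenases outside the group 31 were measured, 10 were higher and 2 lower, with a median of 0.37. Hsd17b3, which makes testosterone in Leydig cells, gave 7.98, 8.29 and 8.70 in Wt P21 and 11.12, 11.07 and 11.31 in Fn adult testes (difference 2.84, adjusted p = 0.000133). The lower genes were Srd5a1 (-1.12, adjusted p = 0.00373) and Hsd17b2 (-0.92, adjusted p = 0.0225), which reduces testosterone and oxidises it, respectively.

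Markers of cell types were read from the same fit, in which 8.07% of all genes were called higher and 0.914% lower. Of 12 Leydig cell markers 9 were measured, 8 were higher and 0 lower. Their median level was 9.79 to 10.50 on the Wt P21 arrays and 11.84 to 12.25 on the Fn adult arrays. Star, which delivers cholesterol to mitochondria for steroid synthesis, gave 10.04, 9.10 and 10.33 against 12.25, 11.70 and 11.84. The Leydig cell markers Hsd3b1, Hsd3b6 and Hsd17b3 are in the steroid list too. Of 12 macrophage markers 8 were higher and 0 lower, with medians of 7.86 to 8.15 and 8.57 to 9.04, and at an unadjusted p under 0.05, 10 were higher and 1 lower. The latter was Fcgr3, an Fc receptor and the brightest of the list, which read 11.80, 11.90 and 12.19 against 10.57, 11.21 and 11.50 (difference -0.87, adjusted p = 0.0536). Of 13 measured Sertoli cell markers 4 were higher and 1 lower, and of 14 pachytene spermatocyte markers 0 were higher and 2 lower. Of 10 spermatogonial markers 2 were higher. Among 8 markers of peritubular myoid cells, 8 of endothelium, 15 of haploid spermatids, 9 of epididymal epithelium and 9 of adipocytes none passed (limma), and at an unadjusted p under 0.05 these lists held 1, 2, 4, 1 and 3 genes. Germ cell markers identified the tissue as testis on all arrays, the pachytene list having medians of 11.51 to 12.44. The part of cell composition in the dehydrogenase differences was not tested.

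**Figure D4:**
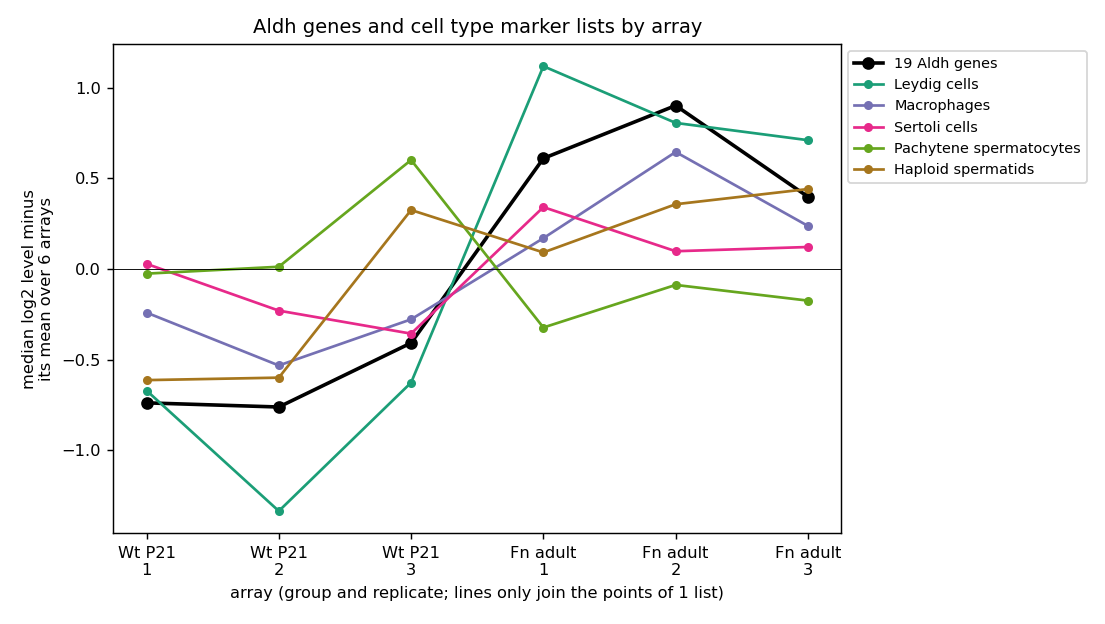
Median log2 level of the 19 Aldh genes (black) and of 5 marker lists on each of the 6 arrays, each drawn relative to its own mean over the arrays. Lines only join the points of a list. The Aldh, Leydig cell and macrophage medians are above their mean on the 3 Fn adult arrays and below it on the 3 Wt P21 arrays. Each median is taken array by array, so different genes can set it. For Aldh it was the value of Aldh3b1 on the Wt P21 arrays and of Aldh3a1 on the Fn adult arrays. The step of the black line is therefore not the median difference of the Aldh genes, which was 0.73. The spermatid list is lower on Wt P21 replicates 1 and 2 than on the other 4 arrays.

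Replicate spread was larger in Wt P21 than in Fn adult testes, with a median SD of 0.22 against 0.13 over the members. Without Wt P21 replicate 1, 2 or 3, 16, 12 and 25 members passed as higher, beside 972, 674 and 2455 of all genes. Without Fn adult replicate 1, 2 or 3 it was 7, 10 and 7 members, beside 306, 441 and 391 of all genes, against 1227 with every array in the fit. Without Wt P21 replicate 3 all 17 genes were called again and 8 more passed as higher. With both Wt P21 replicates 1 and 2 left out, a setting chosen after seeing the data, all 17 genes were again higher. That outcome was fixed, since their Fn adult values all lay above every Wt P21 value. The 1 Wt P21 array that remains is assumed to vary like the Fn adult arrays. In that setting 16 members passed as higher and 6 as lower, Adh4, Akr1e1, Dhrs1, Dhrs7b, Dhrs11 and Rdh11, beside 1535 higher and 1883 lower of all genes. The calls lost were those of Aldh1a3 (adjusted p = 0.0769) and Aldh1b1 (0.0682), and Adh1 passed (0.027). Akr1cl, Aldh1a7, Aldh1l1, Aldh2, Aldh3a1, Aldh4a1 and Aldh7a1, 7 genes, kept the call with every array left out in turn and in all other settings in which they had a value. Aldh1a3, Aldh1b1, Akr1a1, Akr1b8, Adh5, Aldh5a1, Aldh6a1, Aldh3b1, Aldh1l2 and Dhrs7 each lost it without at least 1 Fn adult array. Without Wt P21 replicate 2 the calls of Adh5, Akr1a1, Akr1b8, Aldh1a3 and Aldh1b1 were lost, and without Wt P21 replicate 1 those of Aldh1a3 and Aldh1b1. When only the brighter probe sets were kept, the difference of Aldh5a1 was 0.15 with an adjusted p of 0.470.

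**Figure D5:**
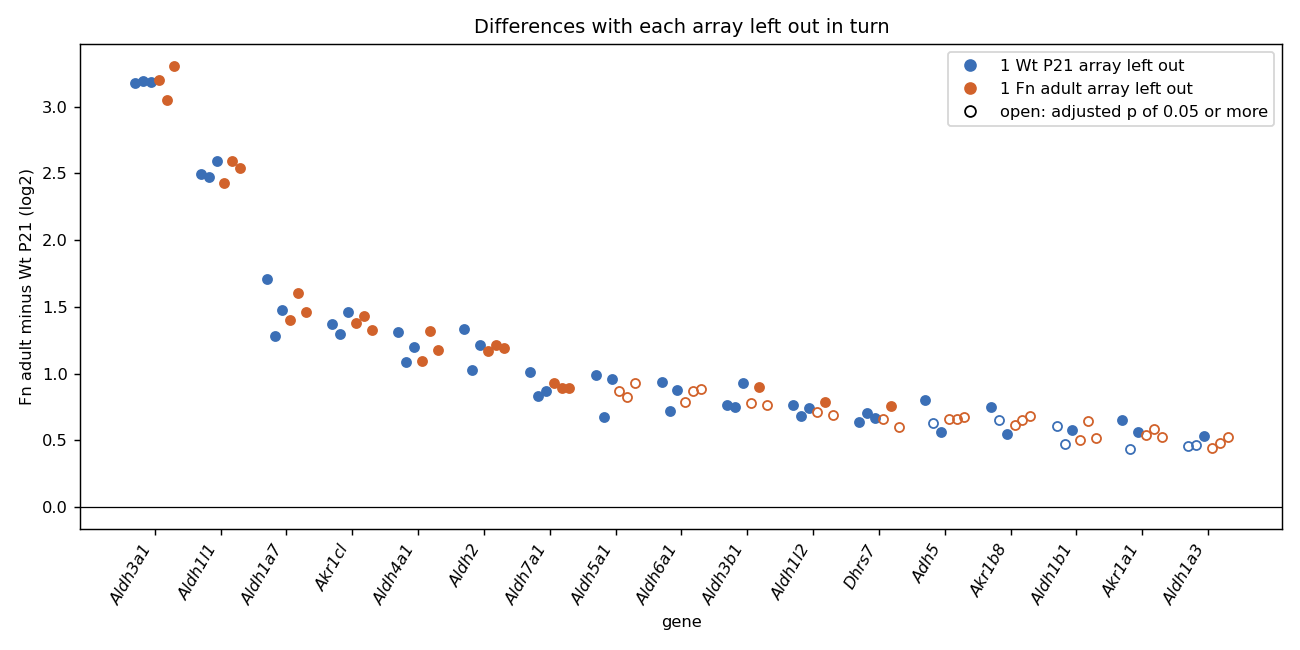
Fn adult minus Wt P21 on the log2 scale (vertical axis) for the 17 called genes with each array left out in turn. Blue points leave out a Wt P21 array and orange points a Fn adult array, and open points have an adjusted p of 0.05 or more. The 7 genes at the left have no open point, and each of the other 10 has at least 1 open orange point.

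Array scaling moved the balance of calls. After quantile normalization 12 of the 17 genes remained, 10 of them Aldh genes, and after centring the arrays on their medians 11 remained, again with 10 Aldh genes. Over all genes the calls were 1227 higher and 139 lower as deposited, 826 and 452 after quantile normalization, and 702 and 629 after centring. The median difference of all genes moved from 0.07 to -0.05 and -0.10, and that of the members from 0.24 to 0.13 and 0.07. Wt P21 replicate 2 had the lowest array median. Of the 17 called genes, 12 had their lowest Wt P21 value on it and 2 their highest. Under both scalings Dhrs11 passed as lower, and under centring Adh4 did so too.

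Promoter windows of RefSeq, from 250 bases before to 50 after a start in GRCm38.p6, were found for 48 of the 59 members and 12 of the 17 called genes. The windows were searched on both strands for short motifs chosen with the results known. CCAAT, the box bound by the factor NF-Y, was in a window of 28 of 48 members and 7 of the 12 called genes, and in 41.1% of all 27025 genes with a window. TATAAA was in 8 of 48 members against 15.7% of all genes, GCGTG, the core bound by the aryl hydrocarbon receptor, in 19 against 35.2%, AAGGTCA, the extended half-site of Nr5a1, in 3 against 5.38%, and TGACNNNGC, the antioxidant response core, in 5 against 14.0%. A match is a description of letters, not of a bound site, and the shares were not tested. The bases before the start of Aldh1l1 and Akr1cl, 2 genes whose probe sets rose almost without exception, are shown with CCAAT or its reverse complement in capitals (chr6:90550543-90550792, plus strand, and chr1:65032760-65033009, minus strand):
Aldh1l1: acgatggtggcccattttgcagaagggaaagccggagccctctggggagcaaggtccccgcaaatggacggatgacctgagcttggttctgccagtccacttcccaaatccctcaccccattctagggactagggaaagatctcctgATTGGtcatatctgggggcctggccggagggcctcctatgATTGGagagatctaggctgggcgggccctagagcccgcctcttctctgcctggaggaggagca
Akr1cl: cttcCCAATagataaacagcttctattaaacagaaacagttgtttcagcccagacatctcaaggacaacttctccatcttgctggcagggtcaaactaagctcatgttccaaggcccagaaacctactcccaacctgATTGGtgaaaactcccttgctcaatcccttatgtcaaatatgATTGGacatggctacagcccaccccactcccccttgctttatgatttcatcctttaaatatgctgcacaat
The stretch of Aldh1l1 held 2 such matches and that of Akr1cl held 3.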

How the data were processed

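Whole-testis total RNA was measured on 6 exon arrays, 3 Wt P21 and 3 Fn adult, and groups came from the sample labels. The authors deposited a log2 value for each of 229581 probe sets on each array. The methods name the EASANA system of GenoSplice Technology and the submitters' processing notes name build mm8, while background correction and normalization are not given in the sources used here. Values were used as deposited. Array medians on the log2 scale were 8.90, 8.76 and 9.05 for Wt P21 and 9.10, 9.07 and 9.05 for Fn adult.

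Probe sets were named through the array annotation and a gene list of GRCm38.p6. One symbol was carried by 209279 probe sets, several by 4446 and none by 15856. The array used 16380 symbols: 14190 are still in use, 2145 were replaced by way of a synonym, and 45 had no match. Genes with 3 or more probe sets, 15207 in all, were tested with limma 3.58.1 in R 4.3.3 (lmFit and eBayes, group as the only term, two-sided, Benjamini-Hochberg, threshold 0.05), and single probe sets and splicing indices likewise. The splicing index test was limited to probe sets and genes with a mean log2 value over 8.99, the median of all probe sets. A gene lay under the lower quartile in a group when its level on each array was below that array's own lower quartile. These quartiles ran from 7.36 to 7.56. The splicing index filter at the lower quartile used 7.50, taken over the probe set means. The number of arrays limits the precision. A fold is 2 to the power of the log2 difference. The scripts were tested on simulated data.

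Named genes were every member past the threshold, in each family the 2 members with the highest level and the 2 with the largest difference among those not past it, and members with a known role in the gonad. Aldh18a1, Aldh3b3, Rdh13 and Rdh14 were added after their values were seen. Members, gene lists and motifs were chosen with earlier results of these data known. Alternatives were quantile normalization, centring, a replicate block, another variance model, the mean of probe sets, filters on signal and probe set number, array weights and leaving out each array. Leaving out Wt P21 replicates 1 and 2 together was added after seeing the data. The mutated gene was not analysed here.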

Additional observations from a re-analysis of the deposited data

Results flagged for a closer look

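Probe sets annotated to both Akr1c12 and Akr1c13 entered no gene level and were outside the comparison of the members. The median of these 12 probe sets was 6.25, 5.88 and 5.85 on the Wt P21 arrays and 6.91, 6.91 and 6.62 on the Fn adult arrays, so that the groups did not overlap and Fn adult was higher by 0.82 on the log2 scale. All of these medians lay under the lower quartile of all probe sets. The probe sets were singled out, as signal outside the main measurement, because the groups did not overlap with Fn adult higher. That was so in 25.6% of all genes. The promoter windows of the 2 genes were identical at 284 of 300 positions when aligned. The probe sets shared by Rdh genes overlapped between groups.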

How the results depend on the processing

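Members called higher numbered 17 as deposited, 11 with arrays centred, 12 after quantile normalization, and 7 to 25 with each array left out. Members called lower numbered 0 as deposited, 1 after quantile normalization, 2 with arrays centred, 2 with array quality weights, 0 to 1 with each array left out, and 6 without Wt P21 replicates 1 and 2, chosen after seeing the data. Over all genes, calls as lower numbered 139 as deposited, 452 after quantile normalization and 629 with arrays centred. They numbered 648 with array quality weights and 19 to 366 with each array left out. Member probe sets called higher numbered 143 as deposited and 46 to 182 with each array left out. Those called lower numbered 1 with arrays centred, 1 with a trended and robust variance, 2 with brighter probe sets only, and 0 to 1 with each array left out. The probe sets called lower belonged to Dhrs11, Dhrs1 and Akr1c20, and, apart from the setting without Wt P21 replicates 1 and 2, the genes called lower were Dhrs11, Adh4, Akr1c19 and Rdh9. For the splicing index 1 was called lower with a trended and robust variance and 1 with the filter at the lower quartile. The cause of these changes was not tested, and leaving out an array also makes the number of arrays smaller.

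Under the settings chosen at the start, signs turned only in genes that did not pass. With arrays centred Aldh1a2 was -0.035 and Dhrs4 was -0.14, and after quantile normalization Dhrs4 was -0.13. With array quality weights Akr1c18 was 0.0050 and Dhrs1 was 0.019. With each array left out in turn, Akr1c14 ran from -0.23 to 0.11, Akr1c18 from -0.35 to 0.053, Aldh1a2 from -0.089 to 0.33, Dhrs4 from -0.098 to 0.21 and Dhrs9 from -0.23 to 0.12. Counts were made over the genes named by rule, without those added after their values were seen, such as Rdh13 and Rdh14. Over all settings but that without Wt P21 replicates 1 and 2, 415 values kept their side of the threshold, 49 lost it, 26 gained it and 15 turned.

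Replicate numbers are shared by the 2 groups. Deviations from the group mean correlated at r = 0.24, -0.11 and -0.02 over the genes for samples with the same number. For samples with different numbers r ran from -0.20 to 0.22. With 3 arrays per group these values cannot decide whether the numbers pair the samples. With the replicate number as a block 15 members were called higher and 0 lower, beside 890 and 126 of all genes. In that setting 14 of the 17 calls remained.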

Other observations

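Several members passed only under an alternative. Adh1 passed under 5 of 15 alternatives and Dhrs3 under 5, both as higher. Aldh3a2 passed under 4, Adh7 under 3, Akr1c13 and Aldh9a1 under 2 each, and Aldh1a1 under 1. Rdh13 passed as higher without Wt P21 replicate 3 (adjusted p = 0.0461) and with array quality weights (0.0477), Rdh14 and Dhrs13 without Wt P21 replicate 3 (0.0235 and 0.0467). Dhrs11 passed under 3 and Adh4 under 1, both as lower, and Akr1c19 and Rdh9 did so with array quality weights (0.0242 and 0.033). These counts leave out the setting without Wt P21 replicates 1 and 2. Some alternatives called more of all genes than the main fit, which called 1227 higher and 139 lower. Array quality weights called 2512 higher and 648 lower, and the mean of probe sets 1999 and 229.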
